A study of Homo sapiens with 6 samples.

Results

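The BCL2 family of apoptosis regulators was examined in NCI-H660 cells, and it comprised 10 genes taken by symbol from the 28008 gene symbols of the count table. BCL2, BCL2L1 (BCL-XL), BCL2L2 (BCL-w) and MCL1 are the 4 pro-survival members. The 6 pro-death members are the effectors BAX and BAK1 and the BH3-only genes BCL2L11 (BIM), BBC3 (PUMA), PMAIP1 (NOXA) and BID. All 10 symbols were present in both the counts and the TPM (a level per gene length, scaled to the same total in each library), and all 10 passed the filter on low counts.

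NCI-H660 is a cell line of neuroendocrine prostate cancer (NEPC), and RNA-seq compared its cells with and without silencing of MUC1, which encodes the MUC1-C subunit. Every library came from H660 cells that carried a tetracycline-inducible MUC1 shRNA on a lentiviral vector and had been selected in puromycin. DOX-negative cells received 0.1% DMSO as vehicle (n = 3), and DOX-positive cells received doxycycline (DOX) at 500 ng/ml (n = 3). The 6 libraries came from cultures grown in triplicate, so p values measure the spread between cultures of 1 line. Cells with a control shRNA and DOX were not analysed here, so an effect of the drug and an effect of silencing MUC1 cannot be told apart. By the description of the study, DOX was given for 7 days before RNA was taken.

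The BCL2 family decides whether the outer mitochondrial membrane is opened, which releases cytochrome c and starts the caspase cascade. BAX and BAK1 form the pores, the pro-survival proteins hold BAX, BAK1 and the BH3-only proteins in check, and the BH3-only proteins report stress by occupying the pro-survival proteins or by activating the effectors directly. PMAIP1 binds mainly MCL1, whereas BCL2L11 and BBC3 bind all the pro-survival members, and small-cell neuroendocrine tumors are known for frequent BCL2 expression.

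Total counts ranged from 47620696 to 74061121 per library. MUC1 fell from 86.0 ± 5.65 to 34.6 ± 4.08 normalized CPM (counts per library total scaled with TMM factors; mean ± SD, n = 3), by 1.32 on the log2 scale (edgeR quasi-likelihood test, Benjamini-Hochberg adjusted p = 0.00017). The 8 neuroendocrine markers summed to 1646 to 1856 CPM in DOX-negative and 1374 to 1661 CPM in DOX-positive libraries, and 2 of them were called lower, NCAM1 (log2 change -0.50, adjusted p = 0.014) and INSM1 (-0.45, adjusted p = 0.039). Summed endothelial markers (3 genes) were 3.09 to 4.76 CPM in DOX-negative and 6.24 to 8.35 CPM in DOX-positive libraries, summed leukocyte markers (5 genes, 1 at 0 in every library) were 1.14 to 1.23 and 1.84 to 2.04 CPM, and summed fibroblast markers (5 genes, 1 at 0 in every library) were 25.1 to 30.6 and 23.4 to 27.9 CPM. The fibroblast sum joined genes that moved apart, since COL1A1 (0.60, adjusted p = 0.019) and LUM (1.06, adjusted p = 0.030) were called higher and COL1A2 was at -0.71 (adjusted p = 0.20). CD68, CDH5 and VWF were also called higher. The part of these markers in the results was not tested.

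One library stood apart. In DOX-positive replicate 2, the deviation of genes from their mean over the libraries correlated with the GC content of their transcripts at r = 0.65 over 13817 genes, whereas r was between -0.27 and 0.10 in the other 5 libraries. This is a correlation across genes within a library, and genes are not independent replicates. Values without this library are therefore given beside those of the members and their classes.

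The promoters of PMAIP1, BCL2L1 and BAX are shown because PMAIP1 and BCL2L1 had the clearest differences in each direction without DOX-positive replicate 2 and BAX carried an unusual number of E-boxes; they were chosen after these values were seen. Each sequence is the 250 bases before an annotated transcript start, 5′ to 3′ on the strand of the gene, from RefSeq (GRCh38.p14). The BAX window is chr19:48954625-48954874 (plus strand), the PMAIP1 window is chr18:59899746-59899995 (plus strand) and the BCL2L1 window is chr20:31723964-31724213 (minus strand). Capitals mark CACGTG, the E-box core bound by MYC, and TGACG, a cAMP response element half-site bound by the ATF and CREB factors, on either strand.
BAX promoter: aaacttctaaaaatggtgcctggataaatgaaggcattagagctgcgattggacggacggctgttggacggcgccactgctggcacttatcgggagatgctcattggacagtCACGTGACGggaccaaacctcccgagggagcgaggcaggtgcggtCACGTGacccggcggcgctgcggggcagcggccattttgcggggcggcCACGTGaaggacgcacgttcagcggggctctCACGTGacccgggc
PMAIP1 promoter: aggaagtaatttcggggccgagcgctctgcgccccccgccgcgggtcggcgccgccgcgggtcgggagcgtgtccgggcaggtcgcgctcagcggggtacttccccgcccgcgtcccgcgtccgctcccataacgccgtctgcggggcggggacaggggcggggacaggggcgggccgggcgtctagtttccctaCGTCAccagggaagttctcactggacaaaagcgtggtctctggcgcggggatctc
BCL2L1 promoter: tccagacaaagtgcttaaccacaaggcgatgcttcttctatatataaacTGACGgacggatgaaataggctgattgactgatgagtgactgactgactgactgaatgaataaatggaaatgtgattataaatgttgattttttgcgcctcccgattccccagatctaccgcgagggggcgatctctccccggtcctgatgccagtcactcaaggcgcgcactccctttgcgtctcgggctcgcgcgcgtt
A further BCL2L1 window, chr20:31722869-31723118 (minus strand), held neither CACGTG nor TGACG and is not shown. In BAX the first E-box overlaps the TGACG match. BAX had 4 E-box matches, a number reached by 5 of 35116 RefSeq promoter windows (0.0142%). Of the 8 members with a promoter entry, CACGTG was found in BAX, BBC3 and BID, against 7.73% of all genes in the table, and TGACG in BAX, BCL2, BCL2L1 and PMAIP1, against 24.9% of all genes. A gene was counted when any of its windows held the motif, and BID did not hold CACGTG in all of its windows. The members' windows had a median GC content of 68.8%, against 58% over all windows. The shares were not matched for GC content or for the number of windows. The full palindrome TGACGTCA was found in 0 of the 8 (2.03% of all genes). TGANTCA, the AP-1 motif, was found in BBC3 (8.06% of all genes). GTAAACA, a FOXO motif, was found in BCL2L11 (3.66% of all genes). A match is a description of the letters and not a measurement of binding.

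Levels per gene length set the members in a steady order. TPM levels here are also shares of libraries in which the noncoding RNA RN7SK held 21.2 to 27.1% of the total. MCL1, a short-lived pro-survival protein, had the highest level, at 24.9 ± 2.88 TPM in DOX-negative and 23.0 ± 5.32 TPM in DOX-positive libraries (SD, n = 3). BCL2, the founding pro-survival gene, followed at 15.5 ± 1.90 and 15.4 ± 3.60 TPM. The effector BAX (13.3 ± 2.41 and 14.1 ± 2.12 TPM) and the pro-survival gene BCL2L1 (12.9 ± 1.75 and 11.8 ± 1.76 TPM) came next.
The order of these 4 genes was not fully fixed. BCL2 was above BAX in 5 of 6 libraries, BAX was above BCL2L1 in 5 of 6, and every other pair of neighbors in the order of the 10 members stood the same way in 6 of 6 libraries. Below them came PMAIP1 (6.74 ± 0.581 and 8.41 ± 1.67 TPM), BCL2L2 (6.39 ± 0.732 and 7.04 ± 1.60 TPM), BCL2L11 (4.57 ± 0.499 and 4.86 ± 1.00 TPM) and BAK1 (3.96 ± 0.532 and 4.30 ± 0.671 TPM). BBC3 (3.46 ± 0.481 and 4.04 ± 0.585 TPM) and BID (1.98 ± 0.238 and 2.10 ± 0.320 TPM) were the lowest. MCL1 alone held 26.7 ± 0.666% of the summed TPM of the 10 members in DOX-negative and 24.1 ± 1.03% in DOX-positive libraries.

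**Figure D1:**
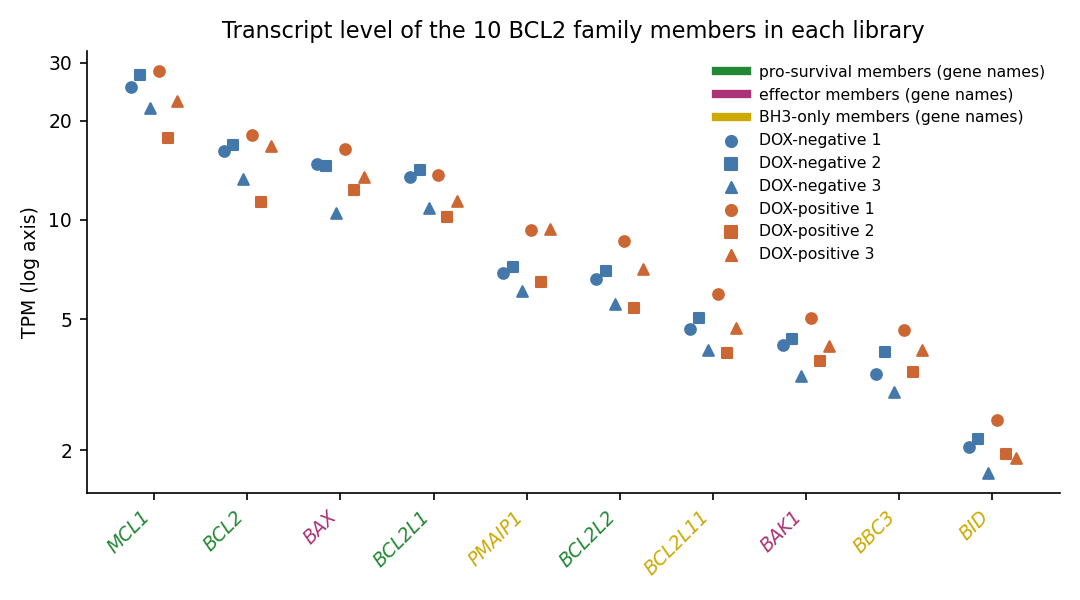
Transcript level of each of the 10 members in TPM on a log axis, with 1 point per library, DOX-negative in blue and DOX-positive in orange. MCL1 was highest and BID lowest in all 6 libraries, and the points of both groups intermix.

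None of the 10 members was called between DOX-positive and DOX-negative cells. With p values adjusted over the 17026 genes tested, 0 of 10 members had an adjusted p under 0.05, where 829 genes (4.87% of those tested) did. At an unadjusted p under 0.05, edgeR returned 3 members, MCL1, BBC3 and PMAIP1, against 21.1% of all genes. DESeq2 returned 2, against 3324 of its 22557 genes, with 0 members called by either tool. Without DOX-positive replicate 2, edgeR returned BCL2L1 and PMAIP1 at this threshold, against 4142 of 17258 genes. In that fit MCL1 (unadjusted p = 0.051) and BBC3 (unadjusted p = 0.081) no longer passed it. The point estimates were above 0 for 7 members and below 0 for 3, with a median of 0.06 on the log2 scale beside 0.00034 over all genes. The median absolute change was 0.096 for the members and 0.13 for all genes. The 95% intervals of the members reached 0.15 to 0.23 on the log2 scale to either side of the estimate, and 464 of the 9475 genes with mean counts in the members' range (601.3 to 11870) were called, the smallest of them at an absolute log2 change of 0.27.

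The count of members called differed in 1 fit. In a fit chosen after seeing the data, in which trends with GC content and transcript length were removed from each library, 3 of 10 members were called, against 13.2% of the 15830 genes tested there, which are fewer than in the fit above. BCL2L1 was lower in DOX-positive cells by a log2 change of -0.20 ± 0.046 (SE; adjusted p = 0.020), and MCL1 by -0.15 ± 0.045 (adjusted p = 0.047). PMAIP1 was higher by 0.32 ± 0.081 (adjusted p = 0.027). The other 7 members had adjusted p values between 0.35 and 0.99 in this fit. When DOX-positive replicate 2 was instead left out, 0 of 10 members were called, with BCL2L1 at -0.20 (adjusted p = 0.072) and PMAIP1 at 0.32 (adjusted p = 0.078).

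Among the pro-survival members, BCL2 was 192.1, 188.9 and 192.6 CPM in DOX-negative replicates 1 to 3 and 179.3, 169.0 and 207.0 CPM in DOX-positive replicates 1 to 3. The groups overlapped, and the DOX-positive libraries spread to both sides of the tight DOX-negative values. The log2 change was -0.05 ± 0.082 (adjusted p = 0.80), and it was 0.02 without DOX-positive replicate 2.
MCL1 was 181.5, 187.0 and 191.8 CPM with vehicle and 170.3, 160.3 and 171.9 CPM with DOX. All DOX-positive libraries lay below all DOX-negative ones, and replicate 2 was the lowest. The log2 change was -0.16 ± 0.068 with an unadjusted p of 0.041 and an adjusted p of 0.21, and it was -0.12 without DOX-positive replicate 2. The exact two-sided permutation test gave p = 0.10 for MCL1, which is the smallest p that 3 against 3 libraries allow.
BCL2L1 was 78.96, 78.38 and 77.65 CPM with vehicle and 67.04, 75.47 and 69.43 CPM with DOX. The groups again did not overlap, although DOX-positive replicate 2 lay closest to the DOX-negative libraries. BCL2L1 differed by a log2 change of -0.15 ± 0.073 (adjusted p = 0.27).
BCL2L2 was 42.20, 42.12 and 43.48 CPM with vehicle and 46.08, 43.66 and 47.06 CPM with DOX, so that it was the pro-survival member with higher values in all DOX-positive libraries. BCL2L2 differed by a log2 change of 0.10 ± 0.074 (adjusted p = 0.49), and by 0.13 without DOX-positive replicate 2. BCL2L2 overlaps HOMEZ and PPP1R3E on the opposite strand, and the strand setting of the counting is not given in the sources used here.

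**Figure D2:**
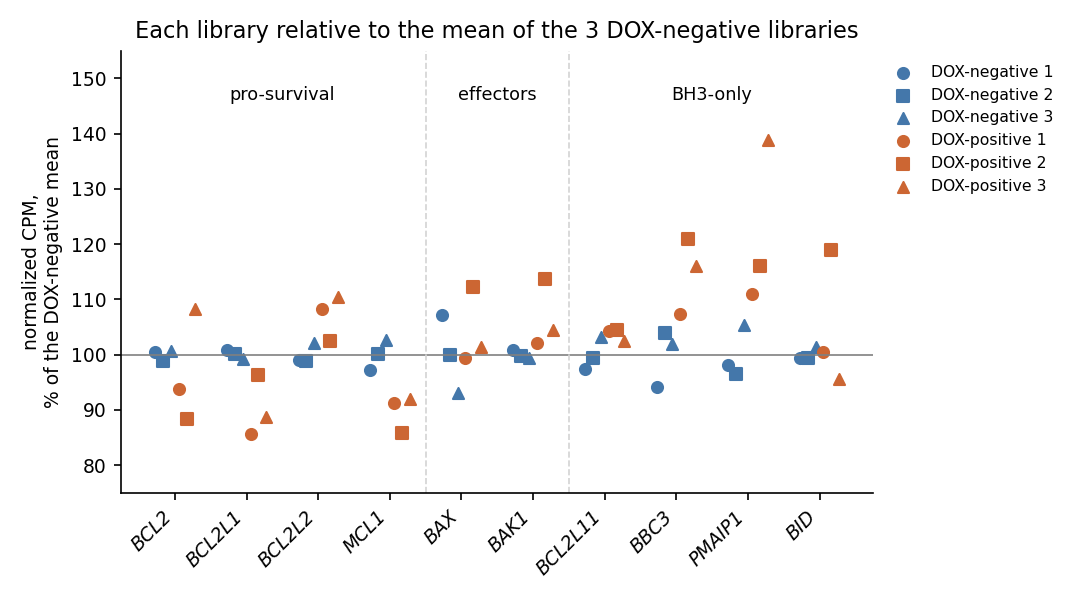
Normalized CPM of each member in each library as a percent of the mean of the 3 DOX-negative libraries. DOX-positive values of PMAIP1 reach 138.8% and those of BCL2L1 fall to 85.6%. DOX-positive replicate 2 (orange squares) is the highest library for BAX, BAK1, BBC3 and BID. It is also the highest for BCL2L11, by little (104.5%, with DOX-positive replicate 1 at 104.2%).

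The effectors gave small differences. BAX was 30.25, 28.21 and 26.30 CPM with vehicle and 28.09, 31.71 and 28.66 CPM with DOX, and the groups overlapped. Its log2 change was 0.06 ± 0.089 (adjusted p = 0.75), -0.0014 with the GC and length trends removed, and 0.0078 without DOX-positive replicate 2. BAK1 was 15.35, 15.18 and 15.12 CPM with vehicle and 15.53, 17.29 and 15.90 CPM with DOX. The DOX-positive libraries were all above the DOX-negative ones, replicate 1 by little and replicate 2 by most. The log2 change of BAK1 was 0.09 ± 0.085 (adjusted p = 0.58), and it was 0.05 without DOX-positive replicate 2. RefSeq lists 2 pseudogenes of BAK1, and how the counting treated reads shared with them is not given in the sources used here.

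All 4 BH3-only genes had estimates above 0, with PMAIP1 the furthest from it. PMAIP1 was 22.20, 21.82 and 23.86 CPM with vehicle and 25.08, 26.28 and 31.41 CPM with DOX. Every DOX-positive library was above every DOX-negative library, and DOX-positive replicate 3 was the highest. The log2 change was 0.29 ± 0.099 (fold 1.22, 95% interval 1.05 to 1.42), with an unadjusted p of 0.013 and an adjusted p of 0.12, and it was 0.18 without DOX-positive replicate 3.
BBC3, a BH3-only gene induced by several kinds of stress, was 11.89, 13.13 and 12.90 CPM with vehicle and 13.57, 15.29 and 14.67 CPM with DOX. The groups did not overlap, and replicate 2 was the highest of the DOX-positive libraries. BBC3 differed by a log2 change of 0.20 ± 0.091, with an unadjusted p of 0.0498 and an adjusted p of 0.24, and it was 0.14 with the GC and length trends removed and 0.16 without DOX-positive replicate 2.
BCL2L11 was 51.59, 52.63 and 54.69 CPM with vehicle and 55.18, 55.35 and 54.22 CPM with DOX, and DOX-negative replicate 3 lay inside the DOX-positive range. BCL2L11 differed by a log2 change of 0.05 ± 0.071 (adjusted p = 0.73), the same to 2 decimals without DOX-positive replicate 2. BCL2L11 overlaps the noncoding gene MIR4435-2HG on the opposite strand.
BID, which links death receptors to the mitochondrial pathway, was 9.31, 9.31 and 9.49 CPM with vehicle and 9.41, 11.15 and 8.97 CPM with DOX. The DOX-positive libraries lay on both sides of the DOX-negative ones, with replicate 2 apart. The log2 change was 0.07 ± 0.11 (adjusted p = 0.77), and it was -0.03 without DOX-positive replicate 2.

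**Figure D3:**
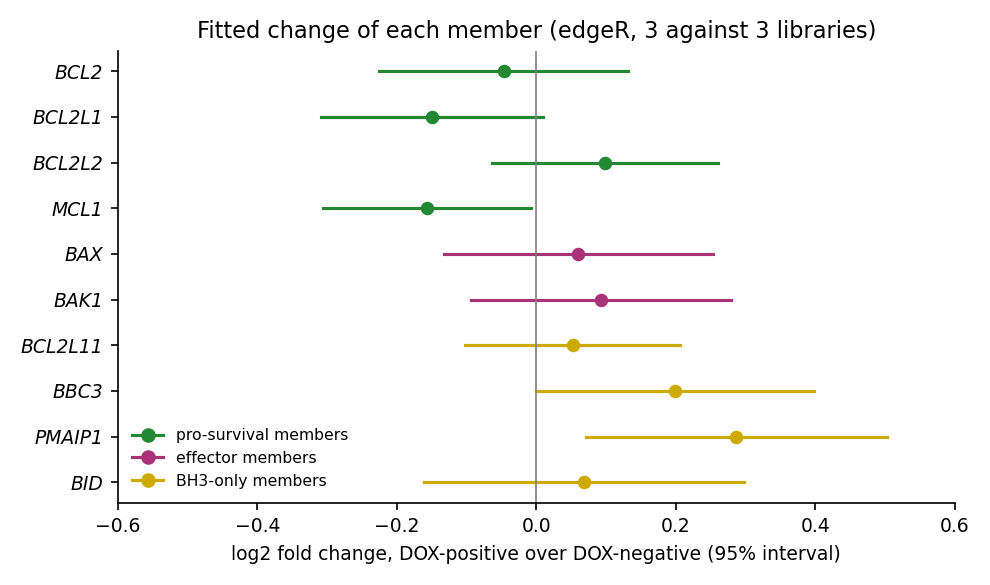
Fitted log2 change of each member, DOX-positive over DOX-negative, with 95% intervals (edgeR, 3 against 3 libraries). The 6 pro-death estimates lie above 0 and 3 of the 4 pro-survival estimates lie below 0, and the intervals, which are not adjusted for multiple tests, leave out 0 for MCL1, BBC3 and PMAIP1.

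The members were next read as classes. Groups did not overlap for 6 of 10 members (60%), 4 higher and 2 lower with DOX, where 28.1% of all tested genes showed no overlap. Leaving out a library cannot create overlap, so these 6 members had to stay apart without DOX-positive replicate 2. The count of members stayed at 6 there, where 43.6% of all tested genes showed no overlap. Groups with fewer libraries separate more easily, so the 2 settings are not alike. All 6 pro-death estimates were above 0, with a median log2 change of 0.08, and 3 of 4 pro-survival estimates were below 0, with a median of -0.10. Without DOX-positive replicate 2, 5 of 6 pro-death estimates were above 0 (median 0.05) and 2 of 4 pro-survival estimates were below 0 (median -0.05).
The balance of the classes was taken in each library as the mean log2(TPM + 0.1) of the 4 pro-survival members minus that of the 6 pro-death members, as a description with no test. This difference was 1.48, 1.47 and 1.48 in the DOX-negative libraries and 1.34, 1.18 and 1.34 in the DOX-positive libraries. The DOX-positive values were all lower and replicate 2 was the lowest. The means differed by -0.19 on the log2 scale, by -0.13 without DOX-positive replicate 2, and by -0.18 with the GC and length trends removed.
The summed TPM of the pro-survival members was 1.71, 1.76 and 1.80 times that of the pro-death members without DOX and 1.57, 1.40 and 1.55 times with DOX. This ratio was lower in each DOX-positive library, with a mean of 1.76 with vehicle, 1.51 with DOX and 1.56 with DOX without replicate 2. The balance and this ratio are both made from the member values given above, so they are no further result. Their size depends on the genes chosen. For example, the BH3-only gene BMF is left out, although its mean of 14.5 TPM over all libraries was above that of BAX (13.7 TPM).

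Ratios within a library were also formed for pairs of proteins that bind each other, and as descriptions they carry no test. These pairs are a choice among many, and none holds BCL2L2, the pro-survival member that was higher with DOX. The TPM ratio of MCL1 to PMAIP1 was 3.66, 3.83 and 3.60 without DOX and 3.04, 2.73 and 2.45 with DOX. BCL2L1 to BBC3 was 3.97, 3.57 and 3.60 against 2.96, 2.95 and 2.83. BCL2L1 to BAK1 was 3.24, 3.25 and 3.23 against 2.72, 2.75 and 2.75. In these pairs every DOX-positive library was lower, and in BCL2L1 to BAK1 the libraries of each group nearly coincided, DOX-positive replicate 2 included. This lack of overlap follows from the members, since the first gene was lower and the second higher in every DOX-positive library. It is no further result. MCL1 to BCL2L11 was 5.443, 5.496 and 5.425 against 4.77, 4.48 and 4.90, again without overlap. This ratio too is made from the member values given above. BCL2 to BCL2L11 was 3.49, 3.36 and 3.30 against 3.04, 2.86 and 3.58, and BCL2 to BAX was 1.10, 1.16 and 1.26 against 1.10, 0.919 and 1.25. In both ratios with BCL2 the groups overlapped. Without DOX-positive replicate 2, the mean of BCL2 to BAX was 1.17 in each group, and the other pair means with DOX moved by little, MCL1 to PMAIP1 staying at 2.74, BCL2L1 to BBC3 going from 2.91 to 2.89, BCL2L1 to BAK1 from 2.74 to 2.73, MCL1 to BCL2L11 from 4.72 to 4.84 and BCL2 to BCL2L11 from 3.16 to 3.31. Counts per gene do not separate the spliced forms of MCL1 and BCL2L1, which differ in function.

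**Figure D4:**
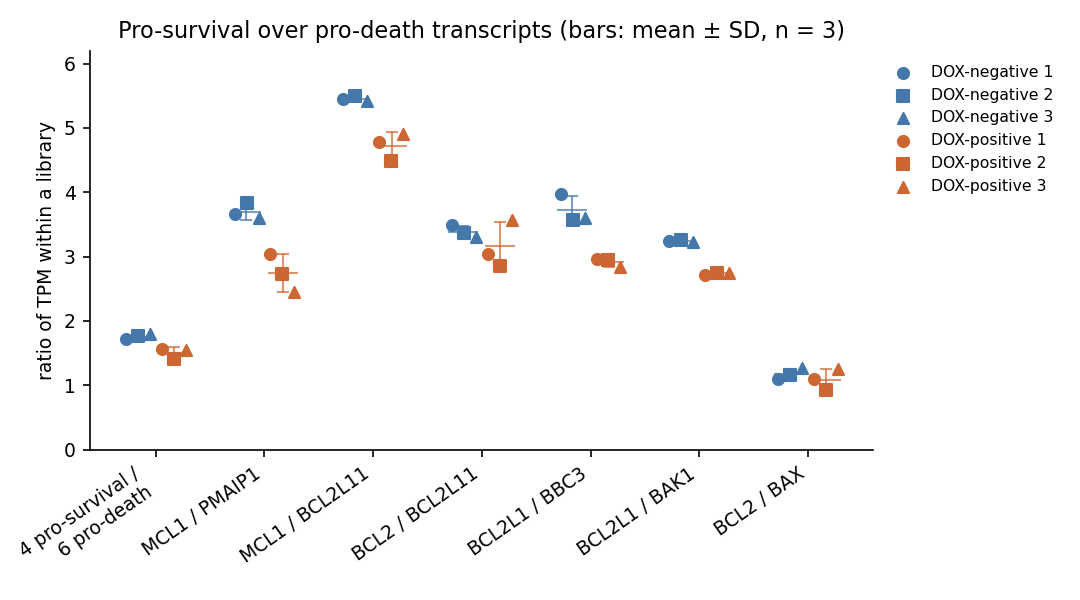
TPM ratios of pro-survival to pro-death transcripts within each library, with bars for mean ± SD (n = 3). The groups are apart for 5 of the 7 ratios and overlap for BCL2 over BCL2L11 and BCL2 over BAX. The ratios share genes and are made from the member values, so they do not count as separate results. The single-gene pairs are a choice among many and leave out BCL2L2, and ratios of other genes were not formed for comparison. Among single genes, 28.1% of those tested showed no overlap.

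Around the members, 84 genes of the cell death pathway were read from 7 lists, of which 79 were tested. Of these, 3 were called higher and 4 lower, where 2.91% of all genes were called higher and 1.96% lower. In bulk RNA, fewer cells of a kind and less RNA per cell cannot be told apart. Without DOX-negative replicates 2 or 3 or DOX-positive replicate 3 the calls over all genes fell from 829 to 127, 58 and 375, and each call named in the following was lost in some of these fits.

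In the remainder of the BCL2 family, 0 of 11 tested genes were called, against 4.87% of all genes. By edgeR, 3 had an unadjusted p under 0.05, against 21.1% of all genes, and DESeq2 called 0. BCL2A1 and BCL2L14 were too low to test. BMF and BNIP3 are named here after their values were seen. BMF, a BH3-only gene, ranked 5 among the 23 family genes by mean TPM (14.5) and was 129.4, 111.6 and 106.3 CPM with vehicle and 118.0, 142.1 and 154.2 CPM with DOX. The groups overlapped, and the log2 change was 0.25 ± 0.10 (adjusted p = 0.19). BNIP3, a hypoxia-induced gene of mitophagy, had the highest mean TPM of the family (27.8) and varied widely in both groups, at 61.7, 96.8 and 91.1 CPM with vehicle and 101.6, 62.3 and 33.2 CPM in DOX-positive libraries. Its log2 change was -0.34 ± 0.47 (adjusted p = 0.75). RefSeq lists 46 BNIP3 pseudogenes.

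Downstream of the mitochondrion, 1 of 13 apoptosome and caspase genes was called. DFFB, the nuclease that cuts DNA in dying cells, fell from 24.2, 24.4 and 25.7 CPM to 19.8, 19.7 and 17.5 CPM. Its groups did not overlap, and its log2 change was -0.38 ± 0.086 (adjusted p = 0.028), with adjusted p between 0.064 and 0.14 when any DOX-negative library or DOX-positive replicate 3 was left out. Of 10 mitochondrial partners of the family, ITPR2, a calcium channel of the endoplasmic reticulum, was called. ITPR2 fell from 38.3, 43.2 and 45.1 CPM to 33.7, 24.5 and 25.2 CPM, by 0.60 on the log2 scale (adjusted p = 0.019). DOX-positive replicate 1 lay nearest to the DOX-negative libraries, and the adjusted p was 0.059 without DOX-positive replicate 2, 0.078 and 0.12 without DOX-negative replicates 2 and 3, and 0.050 without DOX-positive replicate 3, just over the threshold.
Of 6 tested inhibitor of apoptosis genes, NAIP was called. NAIP, also a sensor of bacterial proteins, was low, at 4.350, 3.895 and 4.789 CPM with vehicle and 2.92, 2.84 and 3.03 CPM with DOX, and RefSeq lists 4 NAIP pseudogenes. Its log2 change was -0.56 ± 0.13 (adjusted p = 0.028), and the call was lost without any library except DOX-positive replicate 1 (adjusted p between 0.052 and 0.13).

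In the death receptor pathway, 1 of 12 tested genes was called. TNFRSF10B, the TRAIL receptor DR5, rose from 26.3, 22.9 and 22.2 CPM to 29.3, 32.1 and 34.5 CPM. The groups did not overlap, and the log2 change was 0.43 ± 0.096 (adjusted p = 0.029). The adjusted p was 0.15 and 0.17 without DOX-negative replicates 2 and 3 and 0.084 without DOX-positive replicate 3. TNFRSF10B overlaps RHOBTB2 on the opposite strand. Among 12 regulators of the stability of BCL2 family proteins, 0 were called, against 4.87% of all genes. By edgeR, 1 had an unadjusted p under 0.05, against 21.1% of all genes, and DESeq2 called 0.

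Of 15 transcription factors known to act on BH3-only genes, 3 were called, 2 higher and 1 lower. MYC rose from 22.7, 20.5 and 17.8 CPM to 28.5, 34.4 and 37.5 CPM, by a log2 change of 0.72 ± 0.12 (adjusted p = 0.0091). ATF3, a stress-induced factor, rose from 56.2, 53.5 and 52.4 CPM to 67.0, 70.9 and 75.7 CPM, by 0.40 ± 0.076 (adjusted p = 0.015). FOXO1, an activator of BCL2L11 in other cells, fell from 25.5, 30.6 and 27.7 CPM to 22.1, 16.6 and 17.7 CPM, with a log2 change of -0.57 ± 0.12 (adjusted p = 0.019). The groups did not overlap for any of the 3. The list had 11 of 15 estimates above 0 and a median log2 change of 0.19. Over all genes, 8528 of 17026 estimates were above 0 and the median was 0.00034. Without DOX-negative replicate 3, adjusted p was 0.080 for MYC, 0.11 for ATF3 and 0.10 for FOXO1, and without DOX-negative replicate 2 it was 0.094 for ATF3 and 0.098 for FOXO1.

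**Figure D5:**
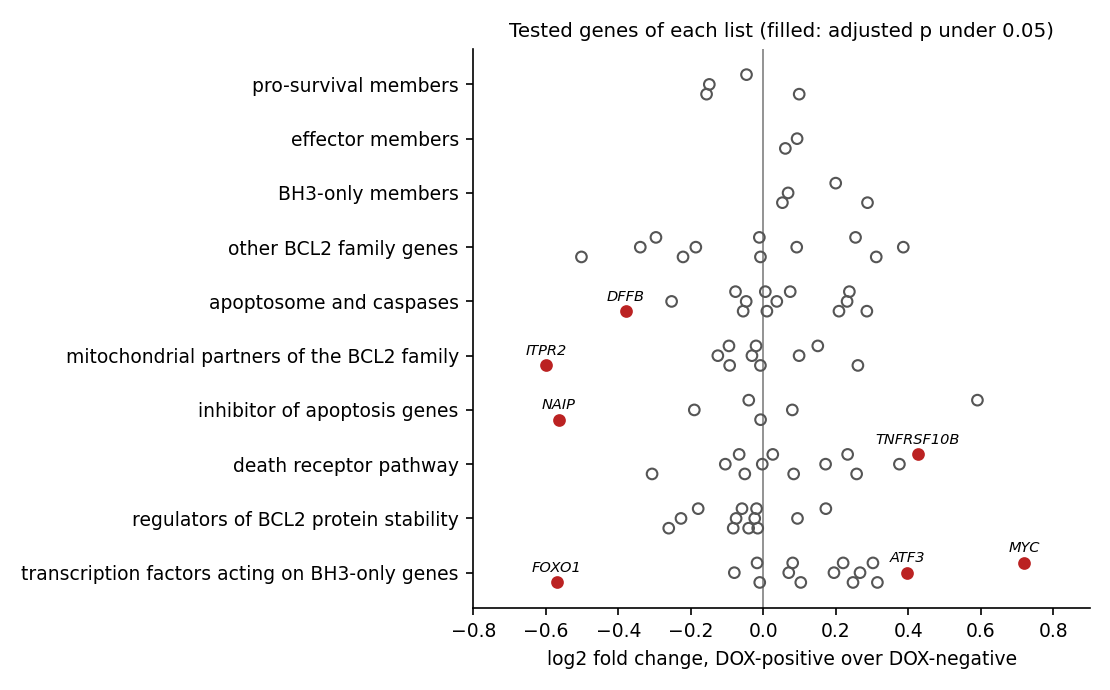
Log2 change (DOX-positive over DOX-negative) of every tested gene in the 3 classes of members and the 7 pathway lists, with genes called at an adjusted p under 0.05 filled and named. The members lie between -0.16 and 0.29, and the 7 called genes lie between -0.60 and 0.72.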

How the data were processed

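RNA-seq of H660 cells was performed by the authors on stranded mRNA libraries. Per the labels, reads were aligned with STAR to GRCh38 (also given as hg38) and DESeq2 was used. The deposited counts are raw reads per gene symbol, and the deposited TPM were made by dividing by gene length and bringing every library to 1 common total. The aligner version, the annotation, the gene lengths and the strand setting of the counting are not given in the sources used here.

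Groups and replicate numbers were read from sample titles. Counts were filtered with filterByExpr, scaled with TMM factors and tested with edgeR 4.0.16 (R 4.3.3; robust glmQLFit, glmQLFTest, no covariates), and p values were adjusted by Benjamini-Hochberg over 17026 genes. Errors beside fold changes are SE, and n was 3 per group. The code was tested on simulated data. Alternatives were RLE, upper-quartile or no scaling factors, no filter, a mean of at least 50 counts, DESeq2 1.42.0, limma-voom and limma-trend (3.58.1) on log2 TPM with pseudocounts of 1 or 0.1, with a mean TPM of at least 1 or no such minimum, a replicate block, and leaving out each library. Removal of GC and length trends (GENCODE transcripts, available for 93.0% of tested genes) was added after seeing the data. TNFRSF10B and the other non-member genes were named when called, up to 4 per list by absolute log2 change. MARCHF5 was matched as MARCH5. The members, lists and marker genes were chosen with earlier results of these data known, and lists were described by counts and medians without a set test. Some genes of the lists are not reported here. Same-numbered libraries did not resemble each other in their deviations, which cannot show whether cultures were paired. Replicates differed by more than counting noise (chi-square per degree of freedom 17.9 to 110.7). Gene models, overlaps and pseudogenes came from RefSeq (GRCh38.p14) and GENCODE tables.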

Additional observations from a re-analysis of the deposited data

How the results depend on the processing

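The count of 0 members called held in all 17 alternatives chosen with the design, and in the fit with GC and length trends removed, added after seeing the data, it was 3 (BCL2L1, MCL1 and PMAIP1). With 1 library left out, the log2 change was -0.135 to 0.0171 for BCL2 and -0.0257 to 0.130 for BID, and both turned direction without DOX-positive replicate 2 alone. The direction also turned for BAX (-0.0014) with the trends removed, and the other 7 members kept their direction throughout. The balance of the classes was -0.22 to -0.13 when each library was left out, with -0.13 without DOX-positive replicate 2.

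Over all genes, 829 calls became 1354 with DESeq2, 2096 with the GC and length trends removed, 11 with log2(TPM + 1) and no filter, 31 with log2(TPM + 1) and a minimum mean TPM, 35 with log2(TPM + 0.1), and 58 to 1035 when 1 library was left out. The 3 fits on TPM called 0 genes in the apoptosome, mitochondrial partner, inhibitor of apoptosis, death receptor and transcription factor lists. With the trends removed, 13.2% of the 15830 tested genes were called. In that fit, calls were 1 in the other BCL2 family genes, 6 in the apoptosome and caspases and 2 in the mitochondrial partners. There were also 2 in the inhibitors of apoptosis, 1 in the regulators of stability and 7 in the transcription factors. The transcription factors had 5 calls without the count filter and 6 with DESeq2. Leaving out 1 library gave 0 to 1 calls in the apoptosome list, 0 to 1 in the mitochondrial partners, 0 to 1 in the inhibitors of apoptosis, 0 to 1 in the death receptor pathway, 0 to 1 in the regulators of stability and 0 to 4 in the transcription factors. The cause of these shifts was not tested.

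Same-numbered libraries correlated in their deviations at -0.57, 0.022 and -0.077 over 14587 genes. With so few libraries per group this cannot show whether cultures were paired. A fit with the replicate number as a block called 998 genes and 0 members. In the edgeR fit on all libraries without trend removal, the smallest absolute log2 change called at the depth of the members was 0.27.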
